A study of Homo sapiens with 4 samples.

Results

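The regions described here are the 500 highest-scoring stitched clusters of distal open chromatin in MCF10A cells without doxycycline (No Dox). Distal peaks lay more than 2.5 kb from every transcription start site (TSS) of GENCODE release 44, and those with gaps of at most 12500 bp were stitched into a cluster. A cluster was scored as the sum, over its peaks, of fold enrichment times width (in kb), and the members are the 500 highest of the 6836 clusters with 3 or more peaks. They hold 19163 of the 88555 distal peaks on chromosomes 1 to 22 and X (21.6%), out of 117712 No Dox peaks there. The members were thus chosen by the fold and width of their peaks, and these values, with the score and number of peaks, are given as a description.

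The cells are MCF10A, a non-transformed human mammary epithelial line, transduced with a tet-inducible TAZ-4SA, a constitutively active form of the Hippo pathway effector TAZ. Both groups of the series carry this construct: 2 No Dox replicates, and 2 Dox replicates that had 0.05 µg/mL Dox for 72 h, each with 50000 cells per ATAC-seq reaction. The medium holds horse serum, EGF, hydrocortisone, cholera toxin and insulin, so the No Dox state is that of a transduced line in growth medium and not of the mammary gland. ATAC-seq marks open chromatin by the insertions of a transposase. The replicates of each group were pooled before peaks were called, so each region has 1 fold and no replicate error, no test between samples is possible, and the depth is unknown.

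Enhancers are stretches of DNA away from promoters that bind transcription factors and raise the transcription of genes, often over long distances. Genes that set the identity of a cell type often have many of them side by side, and stitching neighbouring peaks and ranking the sums is the usual way to look for such clusters, mostly with marks of active chromatin. In basal mammary epithelial cells, AP-1 (dimers of FOS and JUN proteins), the TEAD factors that carry YAP and TAZ to DNA, RUNX, C/EBP and p63 are known for binding such elements. Open chromatin alone does not show enhancer activity, and no mark of activity was analysed here, so the regions are called clusters or members below.

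The sequences around 9 summits are shown because they come from both ends of the range of members described below. These are compact clusters with strong peaks, only some of them at epithelial genes, and long strings of mostly weak peaks. Each is 151 bp of hg38, plus strand, centred on the summit. Capitals mark matches on either strand to AP-1 (TGAGTCA or TGACTCA), TEAD (ACATTCC or GCATTCC), RUNX (TGTGGTT or TGCGGTT) and C/EBP (TTGCNNAA). A match is a run of letters and not a proven binding site. Within 100 bp of the summit, 15.7% of all distal peaks held AP-1, 7.52% TEAD, 5.78% RUNX and 13.7% C/EBP. BHLHE40 and KAT2B were picked after their values were seen.
TGFB2, chr1:218377442-218377592: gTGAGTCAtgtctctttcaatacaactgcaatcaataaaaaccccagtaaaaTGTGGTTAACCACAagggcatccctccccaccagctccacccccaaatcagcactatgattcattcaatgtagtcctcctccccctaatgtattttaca
KAT2B, chr3:20054702-20054852: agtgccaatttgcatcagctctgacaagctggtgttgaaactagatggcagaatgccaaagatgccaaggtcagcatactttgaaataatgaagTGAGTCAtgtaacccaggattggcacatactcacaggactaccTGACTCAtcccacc
BHLHE40, chr3:5023342-5023492: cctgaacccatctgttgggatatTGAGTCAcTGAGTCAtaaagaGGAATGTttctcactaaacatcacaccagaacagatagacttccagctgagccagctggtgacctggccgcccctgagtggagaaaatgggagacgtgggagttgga
LAMB3, chr1:209657251-209657401: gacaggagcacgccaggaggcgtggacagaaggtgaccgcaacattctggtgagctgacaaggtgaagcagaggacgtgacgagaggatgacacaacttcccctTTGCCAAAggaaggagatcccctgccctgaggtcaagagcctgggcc
LAMB3, chr1:209670548-209670698: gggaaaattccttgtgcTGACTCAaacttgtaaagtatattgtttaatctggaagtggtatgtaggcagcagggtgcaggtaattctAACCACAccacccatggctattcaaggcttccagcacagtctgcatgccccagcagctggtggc
FAT2, chr5:151615604-151615754: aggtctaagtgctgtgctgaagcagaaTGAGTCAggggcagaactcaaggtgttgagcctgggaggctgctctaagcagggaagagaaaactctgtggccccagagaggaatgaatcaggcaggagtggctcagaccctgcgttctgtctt
RYR2, chr1:237205851-237206001: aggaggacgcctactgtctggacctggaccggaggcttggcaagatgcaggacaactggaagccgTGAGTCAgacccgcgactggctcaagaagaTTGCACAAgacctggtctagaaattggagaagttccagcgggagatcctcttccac
ESRRG, chr1:217029415-217029565: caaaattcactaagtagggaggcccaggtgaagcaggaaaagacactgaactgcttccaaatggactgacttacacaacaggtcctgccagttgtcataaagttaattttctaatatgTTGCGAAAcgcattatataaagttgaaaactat
ESRRG, chr1:216464504-216464654: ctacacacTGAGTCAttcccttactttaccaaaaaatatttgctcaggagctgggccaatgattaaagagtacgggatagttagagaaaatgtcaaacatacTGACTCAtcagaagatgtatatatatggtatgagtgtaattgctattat

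In the strongest peak of the TGFB2 member (fold 33.1), 2 RUNX matches on opposite strands abut each other 20 and 13 bp before the summit, and an AP-1 match lies 71 bp before it. The strongest KAT2B peak (fold 30.9) holds 2 AP-1 matches 22 and 65 bp after the summit. The third peak of BHLHE40 (fold 13.6) has 2 AP-1 matches separated by a single base, followed by a TEAD match 28 bp before the summit. At LAMB3 the strongest peak (fold 26.1) has a C/EBP match and no AP-1, and the second has AP-1 and RUNX matches. The window of the fourth FAT2 peak (fold 16.7) shows AP-1, 45 bp before its summit. Of the giant clusters, the strongest peak of RYR2 (fold 20.6) has AP-1 7 bp before its summit, the strongest of ESRRG (fold 32.2) has only a C/EBP match, and the fourth of ESRRG (fold 16.1) has 2 AP-1 matches.

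The members ranged from short groups to whole gene bodies. They held 3 to 442 peaks (median 22) and spanned 4.73 to 993 kb (median 81.2 kb), while the other 6336 clusters had a median of 4 peaks and 16.4 kb. Of the members, 178 held more peaks than any other cluster, whose highest count was 29. Most of their peaks were weak, as were most other distal peaks. The fold was under 4 in 63.7% of member peaks and 61.5% of the others, where the lowest fold in the list is 2.54, and 904 (4.72%) reached 8, against 8.13% of the other distal peaks. The highest fold of a member had a median of 15.5 (4.24 to 175), and 116 members had no peak of fold 8 or more. Broad peaks were mostly theirs: 343 member peaks were at least 3 kb wide, against 23 of the other distal peaks. Spacing differed less than size, with a median of 26.7 peaks per 100 kb in members and 24.1 in the other clusters.

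**Figure D1:**
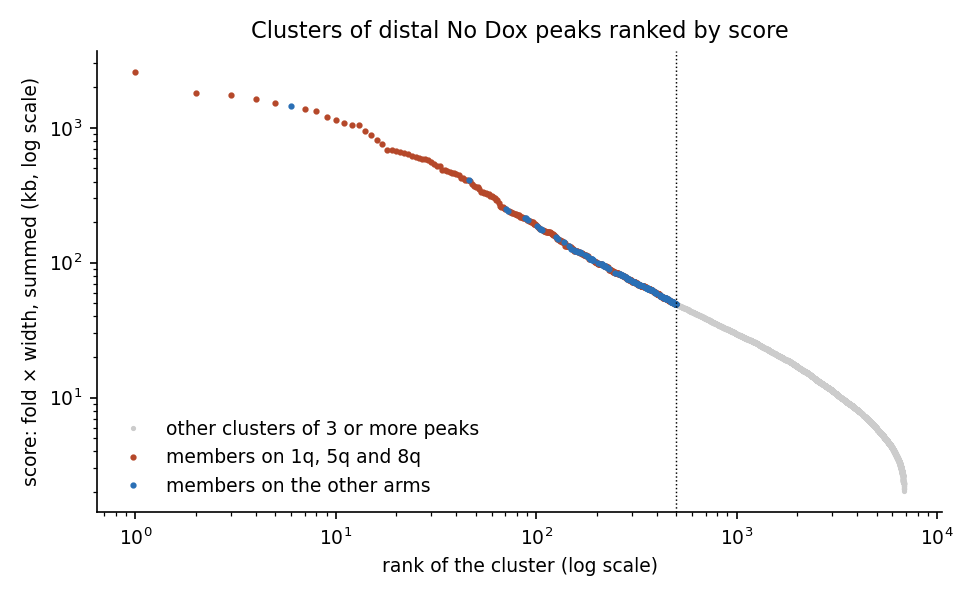
Score of each of the 6836 clusters of 3 or more distal No Dox peaks (fold times width summed, in kb) against its rank, both on log scales; points are clusters, red members on chromosome arms 1q, 5q and 8q, blue members on the other arms, gray all other clusters, and the dotted line marks the border after rank 500. Scores run from 2606 to 49.3 kb among members without a step at the border, and the highest ranks are nearly all on 1q, 5q and 8q.

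The border of the ranking is shallow. The last clusters inside were those nearest to FOXL2, an ovarian forkhead factor (score 49.5 kb), MEX3C, an RNA-binding ubiquitin ligase (49.3 kb), and MYT1L, a neuronal zinc-finger factor (49.3 kb). Just outside were clusters nearest to RGS18, a regulator of G protein signaling (49.3 kb), and PRELID2 (48.8 kb). The member at MYT1L had 18 peaks and no fold of 8, and the cluster at RGS18 had 14 peaks and 1 such fold.

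The members were unevenly spread over the chromosome arms. Of the 500, 369 (73.8%) lay on 3 arms, with 175 on 1q, 119 on 5q and 75 on 8q, where 34.2% of all distal peaks and 24.5% of the other clusters lay. Next came 2p with 22, 10q with 17 and 1p with 13. Per 10 Mb, 1q had 13.9 members, 5q 8.98 and 8q 7.49, while the 34 other arms longer than 30 Mb had 0 to 2.34 (median 0.353). All 46 members with 100 or more peaks were on 1q, 5q or 8q.

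MCF10A is known to carry extra copies of parts of 1q, 5q and 8q, and the fold in these files is not corrected for copy number. Other measures were therefore set beside the count of members. Distal peaks stood at 106, 70.2 and 76.4 per Mb on 1q, 5q and 8q, against 7.23 to 32.4 on the other large arms. Distal peaks with a CTCF motif, a factor that binds much the same sites in most cell types, stood at 1.21, 0.732 and 0.749 per Mb, against 0.225 to 0.757. The median fold of peaks at coding promoters was 10.2, 11.97 and 11.3. These values were inside the range of the other large arms (5.30 to 13.4, the highest on 4q) but above their median of 8.26. The median fold of distal peaks, 3.39 to 3.60, was also inside their range. Copy number was not measured, and its part in the ranking was not tested.

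**Figure D2:**
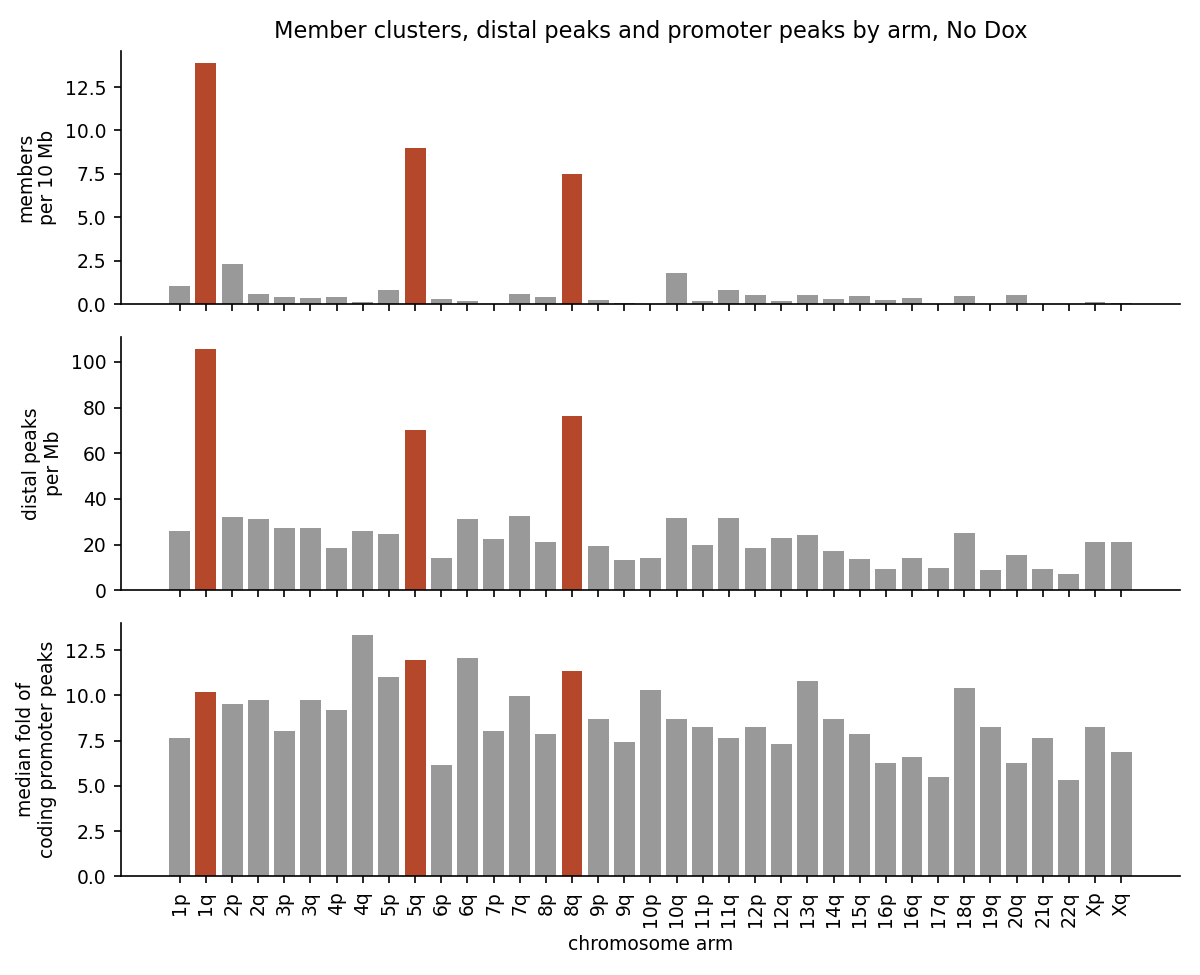
Members per 10 Mb (top), distal No Dox peaks per Mb (middle) and median fold enrichment of the peaks at coding promoters (bottom) for every chromosome arm longer than 30 Mb, with 1q, 5q and 8q in red. These 3 arms stand above all others in the upper panels (7.49 to 13.9 members per 10 Mb, 70.2 to 106 peaks per Mb). In the lowest panel (10.2 to 11.97) they stand within the range of the others but above their median of 8.26.

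The giant clusters on these arms had nearest genes that are in none of the mammary marker lists. The first was nearest to ESRRG, the orphan nuclear receptor estrogen-related receptor gamma (chr1:216092725-217085278, hg38). It had 442 peaks in 993 kb, 49.4% of its span under peaks, a median fold of 4.03 and only 13 peaks of fold 8 or more. Its strongest peak, 5.66 kb wide in an intron of ESRRG, held 6.997% of the score. RYR2, the calcium release channel of heart muscle, followed with 324 peaks in 763 kb, KCNK9, a potassium leak channel on 8q, with 283 peaks, and RPS6KC1, a kinase-like protein, with 201. KIF26B, a kinesin-family protein, had 302 peaks and a highest fold of 36.4.

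The next members of 1q repeat this picture. SPATA17 (260 peaks), PLD5 of the phospholipase D family (185), the voltage-gated potassium channel gene KCNH1 (223), GPATCH2 (181) and RGS7, a regulator of G protein signaling in neurons (140), had median folds of 3.81 to 4.24. CHRM3, a muscarinic acetylcholine receptor, was nearest to the members of rank 14 (249 peaks) and 16 (131 peaks, highest fold 49.6 in its intron). FMN2, an actin-nucleating formin (134 peaks), and TNR, the brain matrix protein tenascin R (186 peaks), were at ranks 17 and 19. On 8q, KHDRBS3, an RNA-binding protein, had 221 peaks and TSNARE1 113. On 5q, ATP10B, a lipid-transporting ATPase, had 202 peaks. ADAMTS2, the enzyme that trims the N-terminal propeptide of collagen, had 148 peaks and none above a fold of 6.99. CSMD3, a large transmembrane protein, had the fifth longest span, 695 kb with 210 peaks, again with no fold above 6.99.

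Some members lay close to other members. When members with gaps of at most 50 kb were joined, they formed 344 runs, of which 274 were single members. The longest run had 15 members and 1256 peaks over 3610 kb of 1q, from ZP4, an egg coat protein, to RGS7 (chr1:237867416-241476950). The same gene was nearest to 2 or more members in 89 of 324 cases. TENM2, a teneurin of neuronal contacts, was nearest to 11 members with 348 peaks. KHDRBS3 and CSMD3 were nearest to 8 each, MAT2B, a subunit of methionine adenosyltransferase, to 7, and KCNT2, a sodium-activated potassium channel, to 6. KCNV1 (a potassium channel subunit), ZP4, PLXNA2 (a semaphorin receptor), ZFPM2 (a cofactor of GATA factors) and B3GALT2 (a galactosyltransferase) were nearest to 5 each, and CHRM3 and ATP10B were the highest ranked of 11 genes nearest to 4 each. These 12 genes are on 1q, 5q or 8q and had an open promoter, and 4.44% (B3GALT2) to 11.4% (PLXNA2) of the peaks of each gene's members held AP-1. Of the other genes nearest to 4 members, MYT1L is on 2p.

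Members lay at about the distances from coding genes, and in the kinds of sequence, of the other clusters. The strongest summit lay a median of 96.7 kb from the nearest coding TSS (112 kb for other clusters), over 100 kb in 247 members and over 500 kb in 52. It was intergenic in 45.2% of members, in an intron of a coding gene in 35.8%, in an intron of a non-coding gene only in 16.0% and in an exon in 3%. The other clusters had nearly the same shares, with 44.6%, 36.2%, 16.9% and 2.32%.

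The nearest genes were mostly open at their promoters. A No Dox peak lay within 1 kb of a TSS of 293 of the 324 nearest genes, 90.4% (95% exact Clopper-Pearson interval 86.7 to 93.4%, which covers counting error only). The share was 67.6% of all coding genes and 79.8% of the genes nearest to other clusters. On 1q, 5q and 8q it was 93.95% of nearest genes against 80.5% of all coding genes there, and on the other arms 83.5% (75.2 to 89.9%). The nearest genes were also long, with a median of 98.6 kb against 27.3 kb for all coding genes, and the part of gene length was not tested.

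Few genes of the marker and pathway lists were nearest to a member, and those few were on 1q, 5q and 8q. Of 252 genes in 20 lists, which hold markers of other cell types and housekeeping genes too, 8 were nearest to one, where 1.65% of all coding genes were. All 8 were among the 29 list genes on 1q, 5q and 8q (27.6%, against 10.2% of all coding genes there), and none was among the 223 on the other arms, where 0.622% of coding genes were. Basal mammary epithelium had 2 of 18, LAMB3 and FAT2. YAP/TAZ targets had 2 of 22, TGFB2 and PTPN14. Epithelial factors had 2 of 21, ELF3 and PITX1. The TGF-beta list had 2 of 16, TGFB2 and TGFBI. Integrins and laminins had 1 of 15, LAMB3 again, and immune cells 1 of 12, PTPRC.

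The other 14 lists had none. These were luminal epithelium (15 genes), endothelial cells, fibroblasts, hepatocytes and neurons (10 each), AP-1 subunits (12), TEAD, YAP and TAZ (13), RUNX (4), EMT factors (10), the glucocorticoid receptor and its targets (10), the EGF receptor and its ligands (15), the contractile cytoskeleton (16), NF kappa B and TNF (15) and housekeeping genes (12). Promoters were counted over the same lists to check the labelled cell type. A promoter peak was found at 14 of 18 basal genes and 10 of 15 luminal genes, against 4 of 12 immune, 2 of 10 endothelial and 2 of 10 hepatocyte genes, where 67.6% of all coding genes had one. Fibroblast genes had 5 of 10 and neuron genes 6 of 10. The luminal share was thus no higher than that of all coding genes. The basal share, 77.8%, was above it, but other lists were higher. All 10 EMT genes, all 15 NF kappa B and TNF genes and all 12 housekeeping genes had a promoter peak. These counts alone therefore do not single out basal cells.

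Other identity genes had clusters below the border. Of the 18 basal genes, 7 (38.9%) were nearest to at least 1 cluster of 3 or more peaks, where 14.0% of all coding genes were, and for 5 of these the highest cluster was below the border. A high share was not particular to basal genes. The other lists ran from 8.33% (immune cells and housekeeping) to 50% (YAP/TAZ targets, and the glucocorticoid receptor and its targets), with 30% for neurons. EGFR, the receptor of the EGF in the medium, was at rank 656 (7 peaks, highest fold 19.1), and TP63, which encodes the master factor of basal epithelium, at rank 1872 (5 peaks, highest fold 8.47, 3 with AP-1). TP63 had no promoter peak. Of the epithelial factors, ETS1 was at rank 648 (highest fold 20.3), SOX9 at 1120 and KLF4 at 1197. RUNX1 was at 2500. With only peaks of fold 6 or more stitched, a setting chosen after the values were seen, 259 clusters were left. Of the 19626 coding genes, 235 were nearest to one, and of the 252 list genes 16. These included TP63, EGFR and SOX9, but also the neuron marker MAP2 and the EMT list gene CDH2.

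The highest-ranked member of each of the 8 list genes was compact, with 3 to 14 peaks, where the median of all members was 22. Genes in no list are not covered by this. LAMB3 encodes the beta chain of laminin-332, the anchor of basal cells to the basement membrane. Its member (rank 125, chr1:209628995-209671196) had 13 peaks in 42.2 kb, and the strongest, 3.60 kb wide and 4.90 kb from a LAMB3 TSS, held 60.2% of the score. Its fold was 26.1, and that of the third peak 12.1. FAT2, a giant cadherin of squamous and basal epithelium, had the highest-ranked member of any list gene (rank 115, chr5:151612889-151659175). Of its 9 peaks, 5 reached a fold of 8, with 18.4, 18.01, 17.8, 16.7 and 10.4, all intergenic and 22 to 41.5 kb from the TSS. Its score was thus shared among several strong peaks, where that of LAMB3 came mainly from 1.

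TGFB2, a TGF-beta ligand, was nearest to 4 members. The first (rank 144, chr1:218351086-218426846) had its 5 strongest peaks in TGFB2 introns, with folds of 33.1 and 22.7 at peaks 31.3 and 34.4 kb from the TSS, 2 peaks at 10.8, and the other 10 of its 14 peaks no higher than 5.08. TGFBI, a TGF-beta-induced matrix protein, was at rank 243 (chr5:135993625-136041548) with 11 peaks on both sides of its TSS. Their 5 highest folds were 21.2, 12.3, 11.2, 10.2 and 9.32, and 3 of the 11 held AP-1. PTPN14, a phosphatase that binds and restrains YAP (rank 349), had 6 peaks up to a fold of 13.6, 3 of them with AP-1. ELF3, an epithelial ETS factor (rank 468), had 6 peaks up to 14.4. PITX1, a homeobox factor (rank 488), had 6 peaks up to 10.2, the strongest 122 kb from its TSS. The member nearest to PTPRC, the leukocyte antigen CD45, was 634 kb away from it in a non-coding gene, and PTPRC had no promoter peak.

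**Figure D3:**
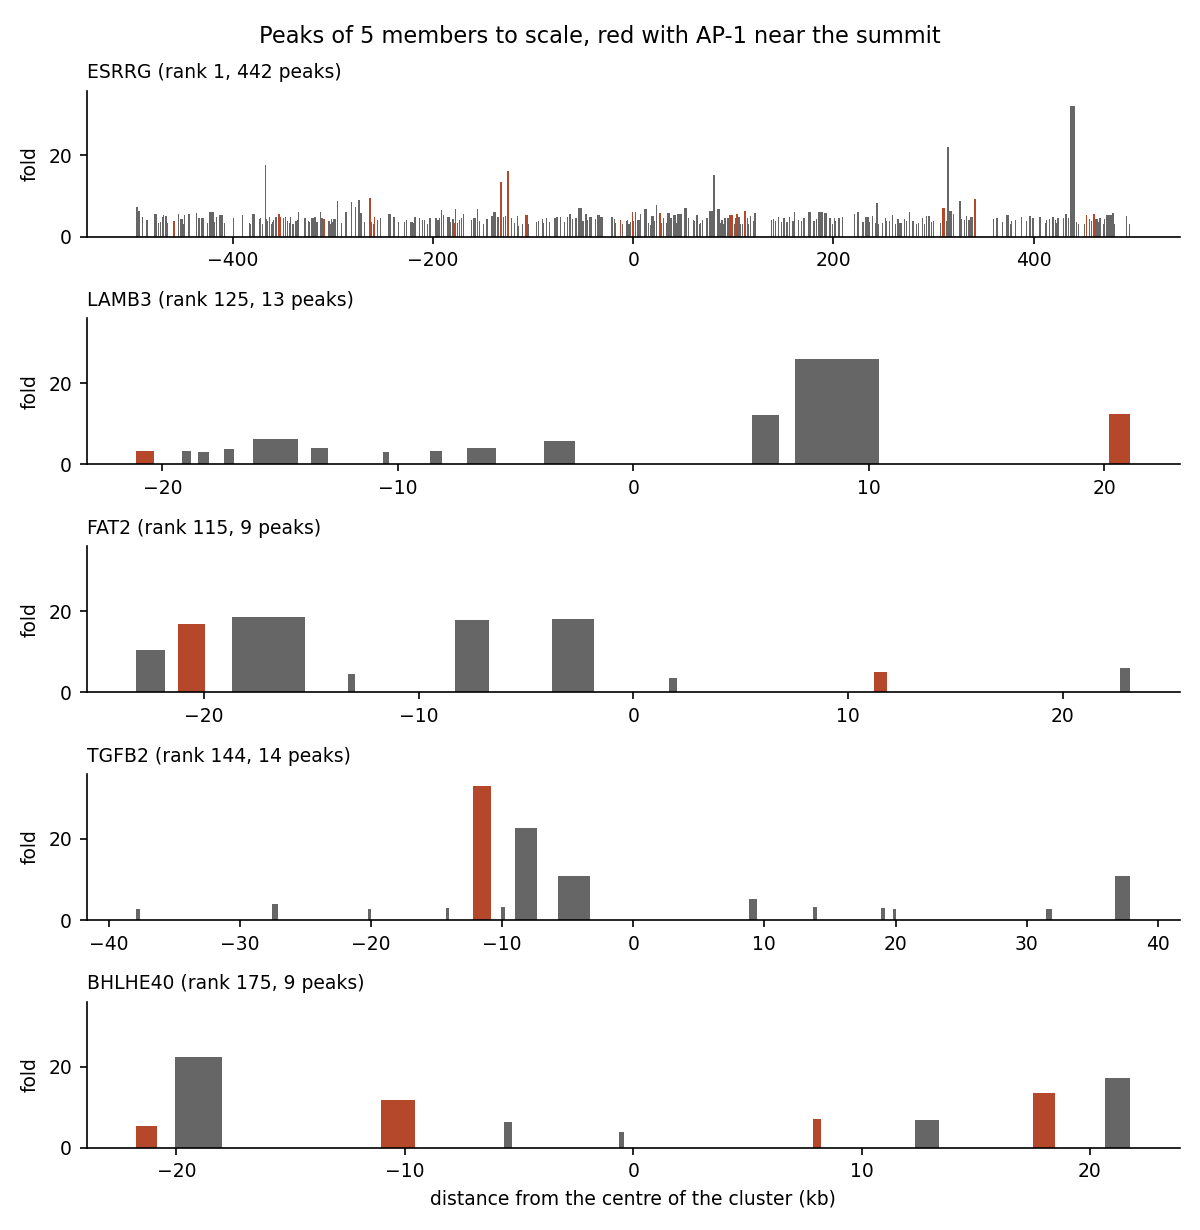
Peaks of 5 members drawn to scale, each bar a peak with its width on the horizontal axis (kb from the centre of the cluster) and its fold enrichment as height; red bars have AP-1 within 100 bp of the summit. ESRRG shows 442 mostly low peaks with 13 of fold 8 or more, while LAMB3, FAT2, TGFB2 and BHLHE40 show 9 to 14 peaks with 3 to 5 of fold 8 or more.

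Other compact members were nearest to regulators of transcription. BHLHE40, a circadian and stress-responsive repressor, had a member on 3p (rank 175, chr3:4983691-5027203) with 9 peaks, 4 of fold 11.9 to 22.5 and 4 with AP-1. KAT2B, a histone acetyltransferase, had 4 peaks within its introns (rank 375), the strongest at 30.9. MYC, on 8q, was nearest to a member of 4 peaks 439 kb away (rank 337, highest fold 28.4). These genes were chosen after their values were seen.

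**Figure D4:**
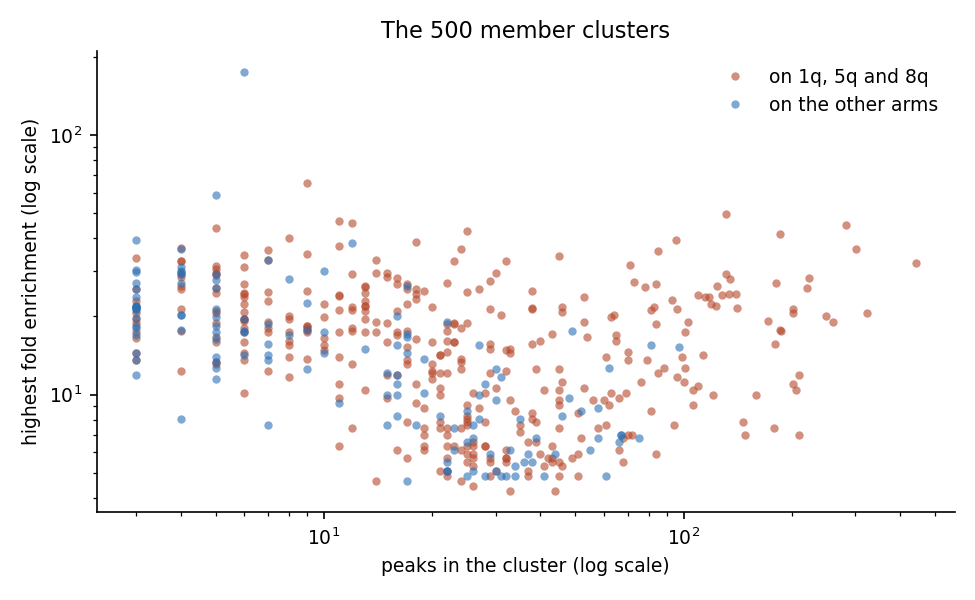
Highest fold enrichment of each of the 500 members against its number of peaks, both on log scales; red points are on 1q, 5q and 8q, blue points on the other arms. Members with few peaks reach the border mostly with a strong peak, members with 20 to 100 peaks include many whose highest fold is under 8, and the single point at 175 is the 16q cluster nearest to SHCBP1.

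The 131 members on the other arms gathered near chromosome ends. Of these, 67 lay under 10 Mb from an end, where 20.4% of the distal peaks of these arms lay, among them members at PTPRN2 and DNAJB6 on 7q and MYT1L on 2p. Setting aside the 13 members near a centromere, the 66 near an end had a median of 20.5 peaks and a median fold of 3.60, and the 52 elsewhere 5.5 peaks and 5.30. AP-1 was found in 6.19% (5.08 to 7.47%) of the peaks near an end and in 13.1% (10.9 to 15.7%) of those elsewhere. Member peaks on the other arms were richer in GC (median 53.2%) than those on 1q, 5q and 8q (44.3%). The part of GC content and of the position in these values was not tested.

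The highest fold of all was on chromosome 16. SHCBP1, a partner of the adaptor SHC, was the nearest coding gene, 225 kb away, of the sixth member (chr16:46380782-46401643). Its 6 peaks had a highest fold of 175, followed by 70.5 and 63.6, and none held AP-1. It lies over 5 Mb from the border between the arms, set by hand at 37 Mb, and only by this rule is it among the 52 members elsewhere. These strong peaks also count among the 114 member peaks of fold 12 and over off 1q, 5q and 8q. A second cluster on 16p, chr16:34572389-34596130 (rank 46), had 5 peaks up to 58.9. In the 13 members within 5 Mb of the border between the short and long arms, on arms other than 1q, 5q and 8q, 3.52% (1.15 to 8.03%) of 142 peaks held AP-1. The study's methods compare the peaks with blacklisted regions as a check of quality, without stating that any were removed. The mappability of these members was not tested.

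AP-1 was less frequent in member peaks than in the other distal peaks. It was found in 8.16% of member peaks (7.77 to 8.55%) and in 17.8% of the others (17.5 to 18.1%), while the reversed AP-1 letters (ACTGAGT or ACTCAGT), a control of the same composition, were in 3.65% and 4.24%. Peaks of a cluster are not independent, so these intervals are too narrow. At a fold under 4 the shares were 5.15% and 9.13%, at 4 to 6 they were 8.45% and 26.3%, and at 6 to 8 they were 19.5% and 37.5%. At 8 to 12 (35.7% and 40.9%) and from 12 up (42.5% and 44.1%) the intervals overlapped. Among these 5 classes of equal fold, the gap was widest from 4 to 8.

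At middle folds the gap was present on and off the 3 arms. Between folds of 4 and 6, AP-1 matches occurred in 8.31% of member peaks on 1q, 5q and 8q and 9.72% of those elsewhere, against 21.3% and 27.4% of the other distal peaks on the same arms. From a fold of 12 up, members on 1q, 5q and 8q had AP-1 in 46.3% (41.2 to 51.4%) of peaks and those elsewhere in 29.8% (21.6 to 39.1%). The other distal peaks of this fold held it in 43.5% (38.3 to 48.8%) and 44.2% (41.7 to 46.8%). At the highest folds, member peaks were therefore below the other distal peaks only off the 3 arms.

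Larger members had a lower share of AP-1 peaks, and also a lower share of strong peaks. In the 77 members of 3 to 5 peaks, of which 35 were on the 3 arms, 26.9% of peaks held AP-1, at a median fold of 6.99. The share was 18.1% with 6 to 10 peaks, 11.8% with 11 to 20, 7.63% with 21 to 50, 6.97% with 51 to 100 and 7.10% with over 100. Of the 500 strongest peaks of members, 32.8% (28.7 to 37.1%) held AP-1 at a median fold of 15.5, and of the other member peaks 7.50% at a median fold of 3.60. Other distal peaks of fold 12 and over held it in 44.1%. In all, 420 members had at least 1 AP-1 peak and 80 had none. The share in all member peaks, 8.16%, was 5.15% with a window of 50 bp, 17.5% in whole peaks, 14.1% at a q-value of 1e-05, and 34.9% and 38.3% when only peaks of fold 6 or 8 and over were stitched.

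**Figure D5:**
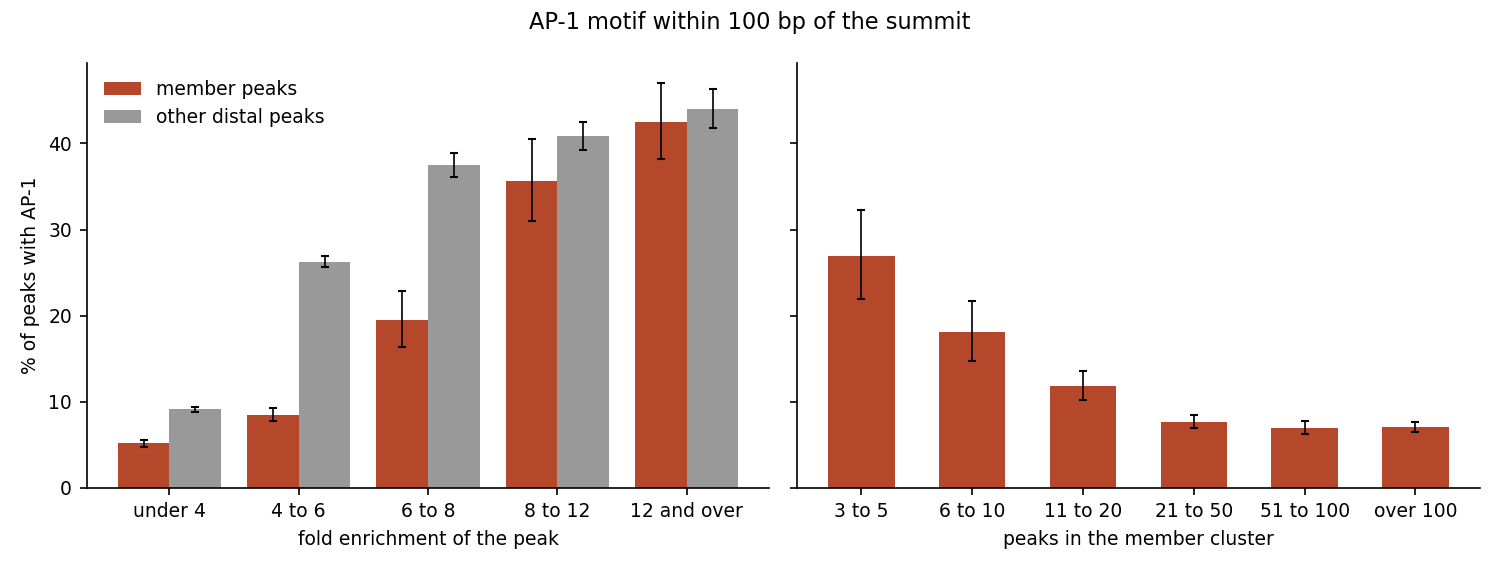
Percent of peaks with AP-1 within 100 bp of the summit, left by class of fold enrichment for member peaks (red) and other distal peaks (gray), right by the number of peaks in the member; bars are shares and error bars exact 95% Clopper-Pearson intervals. Member peaks run from 5.15% to 42.5% with fold and lie below the other peaks up to a fold of 8, and the share drops from 26.9% in members of 3 to 5 peaks to 7.10% in those of over 100.

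With all arms and folds pooled, most other motifs showed gaps in the same direction, smaller in percentage points. TEAD was in 6.33% of member peaks and 7.84% of the others (reversed letters CCTTACA or CCTTACG 2.18% and 2.32%), RUNX in 4.74% and 6.07%, and C/EBP in 10.9% and 14.5%. ETS (CAGGAAG or CCGGAAG) was in 8.43% and 9.63%, KLF (GGGTGTG or GGGCGTG) in 6.12% and 7.38%, and AP-2 (GCCNNNGGC) in 5.83% and 7.37%. CTCF was in 0.652% and 1.96%, in relative terms a wider gap than that of AP-1. The GATA motif, AGATAAG or TGATAAG, that of the luminal factor GATA3 and its relatives, went the other way with 4.69% and 4.15%. Some of these directions did not hold in the member peaks off 1q, 5q and 8q. There, ETS (11.1%), KLF (8.67%) and AP-2 (10.4%) were above the other distal peaks of all arms, and GATA (3.62%) was below. TEAD (6.70%), RUNX (4.7%), C/EBP (7.63%) and CTCF (0.539%) stayed below. From a fold of 12 up, with all arms pooled, the intervals of TEAD, RUNX, C/EBP and ETS overlapped. TEAD was then in 11.7% of member peaks and 11.98% of the others, and C/EBP in 21.7% and 25.2%. RUNX (10.9% and 9.91%) and ETS (13.3% and 11.2%) were higher in members. CTCF was higher in members at a fold of 8 to 12, with 5.24% (3.27 to 7.89%) and 2.13% (1.7 to 2.64%).

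The remaining motifs differed little or were rare. The E-box of SNAIL and ZEB (CAGGTG) was in 19.04% and 19.3%, the glucocorticoid receptor motif (ACANNNTGT) in 6.58% and 6.85%, forkhead (TGTTTAC or TATTTAC) in 6.01% and 6.43%, and GRHL (AACCNGTT) in 1.28% and 1.48%. NF-kB (GGAATTTCC or GGACTTTCC) was in 0.522% and 0.790%, STAT (TTCCNGGAA) in 0.590% and 0.680%, and the long p53/p63 motif in 7 member peaks (0.0365%) and 0.0576% of the others. Over all distal peaks, the shares were 9.37% for ETS, 7.11% for KLF, 7.03% for AP-2, 1.68% for CTCF, 4.27% for GATA, 19.2% for the E-box, 6.79% for the glucocorticoid receptor, 6.34% for forkhead, 1.43% for GRHL, 0.732% for NF-kB, 0.661% for STAT and 0.0531% for p53/p63.

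A minority of the strong member peaks held AP-1 within 100 bp of the summit, 35.7% at a fold of 8 to 12 and 42.5% from 12 up. In the 904 member peaks of fold 8 or more, the matches within this window lay a median of 33 bp from the summit. The median was 38 bp in other distal peaks of that fold. AP-1 occurred together with C/EBP in 57 of the 904 (6.31%), with TEAD in 34 (3.76%) and with RUNX in 28 (3.10%), against 8.05%, 4.13% and 3.92% of the other distal peaks of fold 8 or more. The sequences of TGFB2 and BHLHE40 printed above are examples. At their higher folds, the strongest peaks of members held C/EBP in 19.2%, TEAD in 9.80% and RUNX in 8.2%, each above its share in the other member peaks (10.7%, 6.23% and 4.65%). Other distal peaks of fold 12 and over held them in 25.2%, 11.98% and 9.91%.

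The Dox libraries, which the ranking did not use, give a second reading of the same regions. The Dox list is the smaller one, with 84321 peaks on chromosomes 1 to 22 and X against 117712 No Dox peaks. A Dox peak overlapped 38.3% of member peaks by at least 1 bp, against 33.9% of all distal No Dox peaks, and 19.5% when 50% of the peak had to be covered. At 1 bp a Dox peak overlapped 457 of the 500 strongest member peaks (91.4%). The other distal peaks were overlapped in 86.2% at a fold of 8 to 12 and in 96.4% from 12 up. Weak peaks were overlapped far less often. At a fold under 4, where 63.7% of member peaks lay, the share was 22.9% in member peaks and 15.03% in the other distal peaks. Most of the weak peaks of members thus had no counterpart in the Dox list.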

How the data were processed

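The deposited files used are 2 peak lists, 1 per condition. Per the labels and the methods, the authors mapped paired reads with BWA (hg38) and merged the 2 replicates per condition before peak calling with MACS2 (FDR 0.05). Their versions are not given in the sources used here. Column 7 holds the fold enrichment at the summit, a ratio as the authors deposited it, which moves in steps of 0.212 as over 1 constant background. The −log10 q-value of each peak, also deposited, served for the q-value alternatives. Depth cannot be read from these lists.

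No test was made, since replicates were pooled. The members, lists and motifs were chosen with earlier results of these data known. Nearest genes were taken from the summit of a cluster's strongest peak to the starts of coding transcripts (GENCODE release 44). The 18 motif groups were sought on both strands within 100 bp of summits, and different motifs may overlap. CTCF and p53/p63 were sought with longer degenerate motifs. The borders between chromosome arms were set by hand, rounded to whole Mb. Genes were named by a rule: those nearest to the 20 highest members, the 12 nearest to most members, up to 4 per list, the 3 clusters on each side of the border, and the 5 members with most peaks or the longest span. For 2 of the genes so named, no values are reported here. EGFR, TP63, ETS1, SOX9, KLF4, RUNX1, PTPRN2, DNAJB6, BHLHE40, KAT2B and MYC were added after their values were seen. Stitching, scores, distances and the search for AP-1 were tested on simulated data. Python 3.11.15, numpy 2.4.6, pandas 2.3.3, scipy 1.17.1, pysam 0.24.0 and matplotlib 3.10.9 were used.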

Additional observations from a re-analysis of the deposited data

How the results depend on the processing

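The results were recomputed under 21 alternatives and 3 more chosen after seeing the data (only peaks of fold 6 or more, only peaks of fold 8 or more, and 1q, 5q and 8q left out before ranking). Of these, 19 change the ranking, and the others change only the gene assignment, the motif window or the Dox overlap. FAT2 and TGFB2 stayed nearest to a member in 20 of the 21 settings that change the ranking or the gene assignment, TGFBI in 19, LAMB3 in 18, PTPN14 in 14, ELF3 and PTPRC in 13 and PITX1 in 10. For each setting that moved a value, these are the members kept of 500, the median peaks per cluster (22), the percent on 1q, 5q and 8q (73.8), the list genes nearest to a member (8), the percent of nearest genes with an open promoter (90.4) and the percent of member peaks with AP-1 (8.16).

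Stitching within 5 kb kept 251 members, with 13 peaks, 85% on the arms, 5 list genes and 93.9% of promoters, and within 25 kb the arms held 52% and AP-1 was at 8.79%. Ranking by the highest fold kept 256, with 5 peaks, 53.6% and AP-1 at 11.1%. A q-value of 1e-05 kept 283, with 5 peaks, 13 list genes and AP-1 at 14.1%. Width alone gave 5 list genes and 7.57%. A TSS distance of 5 kb gave 80.8% and 5 list genes. With 250 members there were 43 peaks, 81.6%, 4 list genes and 7.71%, and with 1000 members 11.5 peaks, 58.8%, 20 list genes and 9.21%. Fold 6 or more kept 104, with 3 peaks, 44.4%, 16 list genes and 34.9%, and fold 8 or more kept 41, with 3 peaks, 47.3%, 5 list genes, 84.9% of promoters and 38.3%. Without the 3 arms, 131 were kept, with 6 peaks, 0% on the arms by construction, 15 list genes, 84.4% and 12.3%. AP-1 was at 5.15% within 50 bp of the summit and 17.5% in the whole peak. The Dox overlap was 19.5% when 50% of a peak had to be covered. Fewer peaks or members enter under the stricter settings, and other causes of these moves were not tested.

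No paired analysis was possible because the replicates were pooled before peaks were called and the pooled list holds no values per replicate to leave out. The depth of each replicate is unknown, and the folds are not corrected for copy number.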
